A study of Mus musculus with 19 samples.

Results

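The proteasome genes were taken as all protein-coding genes of GENCODE M21 whose symbol starts with Psma to Psmg followed by a number. The rule matched 50 of the 51912 genes in the count tables, 21793 of which are protein-coding. By role they were 15 core particle subunits, 4 core subunits that replace them in immune cells or thymus, 17 regulatory particle subunits, 7 assembly chaperones and 6 other activators or inhibitors. The remaining gene, *Psmc3ip*, shares the name only: its protein acts in homologous recombination and is no proteasome subunit.

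The proteasome is the protease that degrades proteins tagged with ubiquitin in the cytoplasm and nucleus. Its core particle is a barrel of stacked alpha and beta rings with the proteolytic sites inside, and its regulatory particle, built from a base with a ring of ATPases and a lid, binds the tagged protein, removes the ubiquitin chain and unfolds the substrate into the barrel. Dedicated chaperones help to build the rings and the base, and in the developing cortex protein turnover by this route accompanies progenitor division and neuronal differentiation.

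Cerebral cortex of mouse embryos at embryonic day 13.5 was sequenced as 1 RNA library per embryo, from 7 ctrl, 5 cKO and 7 dKO embryos on a mixed C57BL/6 and 129 background. The cKO embryos were *Emx1*-Cre conditional mutants of *Ino80*, the ATPase of a nucleosome remodeling complex, and the dKO embryos were *Emx1*-Cre conditional double mutants of *Ino80* and *Trp53*. The ctrl embryos are labelled as control without a list of alleles. Cre driven from *Emx1* recombines in cortical progenitors and their descendants, so cells of other origin in the same tissue, such as microglia, vessels and interneurons, keep both genes.

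Depth ran from 820915 to 8095810 gene counts per embryo (median 2952788). The dKO embryos came from 2 litters, the ctrl embryos from 4 and the cKO embryos from 5. Only litter 1 held both dKO (A, B and C) and ctrl embryos (A and B). The other dKO embryos, D to G, were all males of litter 2, which held no ctrl embryo. For them litter and genotype cannot be told apart. Sex and batch were not balanced: 4 of 7 ctrl, 4 of 5 cKO and 2 of 7 dKO embryos were female, and 1 dKO embryo was the only member of batch 3. Batch 1 held 4 ctrl, 3 cKO and 4 dKO embryos, and batch 2 held 3 ctrl, 2 cKO and 2 dKO embryos. Counts of *Ino80* over the whole gene were higher in cKO (log2 fold change 0.48, edgeR adjusted p = 7.92e-05) and in dKO (0.62, adjusted p = 8.84e-07), and these sums do not resolve the deleted exons, so they do not check the deletion. *Trp53* fell from 43.7 ± 5.21 CPM in ctrl (SD, n = 7) to 34.6 ± 4.92 in dKO (SD, n = 7, log2 fold change -0.36, edgeR adjusted p = 0.0196). CPM values were normalized by TMM over all 19 libraries, so that levels can be set side by side between embryos.

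In ctrl cortex *Psmd14* had the highest level per length of all 50 genes. It encodes the lid's metalloprotease, which cuts the ubiquitin chain from the substrate. The level was 74.5 ± 3.38 CPM per kb of exon (SD, n = 7), 5.02 times the median of 14.9 CPM per kb over the other 7 lid subunits, and its lowest embryo, at 70.9, lay above the highest embryo of every other regulatory subunit. *Psmd4*, a ubiquitin receptor of the base, followed at 36.4 ± 4.5 CPM per kb (SD, n = 7), and its range of 28.2 to 40.9 overlapped that of the ATPase *Psmc6* at 28.8 to 35.0. The lowest regulatory subunit was the ATPase *Psmc2*, with 6.56 ± 0.651 CPM per kb (SD, n = 7).

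Among the core particle subunits, *Psmb2*, a beta subunit without proteolytic activity, was highest at 42.5 ± 2.8 CPM per kb (SD, n = 7), its embryos overlapping those of the alpha subunit *Psma6* at 35.5 ± 3.96. Apart from *Psma8*, an alpha subunit of the testis at 0.119 ± 0.1 CPM per kb, the lowest was the beta subunit *Psmb3* at 6.24 ± 1.25, whose embryos overlapped those of *Psmb5* at 6.75 ± 1.05. The median of the 14 core subunits without *Psma8* was 17.3 CPM per kb, beside 18.1 for the 16 regulatory subunits without *Psmd14*.

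**Figure D1:**
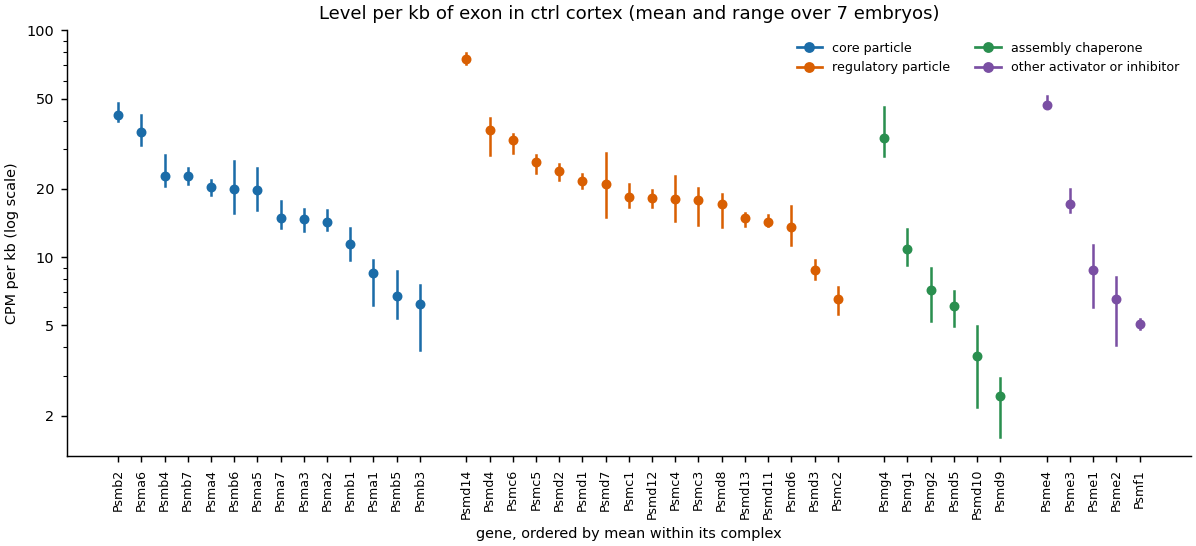
Level per kb of exon in ctrl cortex for the 42 proteasome genes with enough counts to be tested, on a log scale, grouped by complex and ordered by mean. Points are means and bars run from the lowest to the highest of 7 embryos; *Psmd14* stands alone at the top of the regulatory particle and *Psmd9* lies lowest at 2.44 CPM per kb.

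Of the assembly chaperones, *Psmg4*, which acts on the alpha ring, was highest at 33.4 ± 6.16 CPM per kb (SD, n = 7). *Psmg1*, *Psmg2*, *Psmd5*, *Psmd10* and *Psmd9* followed in that order between 10.9 and 2.44 CPM per kb, and the ranges of *Psmg2*, *Psmd5* and *Psmd10* each overlapped that of the next gene in the order. This order depends on the annotated exon length, which is 555 bp for *Psmg4* and 7230 bp for *Psmd5*. In CPM, *Psmd5* was highest of the assembly chaperones at 44.1 ± 5.45 (SD, n = 7), and *Psmg4* was at 18.5 ± 3.42 (SD, n = 7). *Psme4*, which caps the core particle without ATP, led the other activators at 46.7 ± 2.08 CPM per kb (SD, n = 7). *Psmf1*, an inhibitor of the core particle, was lowest of that group at 5.08 ± 0.168 among the genes with enough counts to be tested.

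Of the 50 genes, 43 passed the filter on low counts in each comparison. The 43 include *Psmc3ip*, which shares the name only and is left out of the figures. Its log2 fold changes were 0.12 in cKO against ctrl, 0.15 in dKO against ctrl and 0.04 in dKO against cKO, and none passed. Of these 43, 9.3% had an edgeR adjusted p under 0.05 in cKO against ctrl and 16.3% in dKO against ctrl. In dKO against cKO 2.33% did. Among all genes tested, the counts were 2004 of 11660, 1759 of 11381 and 1763 of 11746 in the same order. In dKO against ctrl the proteasome genes were thus called about as often as all genes. In cKO against ctrl, 2 genes were higher and 2 were lower at a false discovery rate of 0.05 (edgeR's quasi-likelihood test), where 7.31% of all 11660 genes tested were higher and 9.88% lower. At 0.001, *Psmd14* was higher and *Psmd5* lower, beside 1.06% and 2.32% of all genes. At 0.001 the call of *Psmd14* was lost in each of the 12 fits that left out 1 embryo (smallest adjusted p = 0.00102) and that of *Psmd5* in 7 of them. The median log2 fold change over the 43 genes was 0.07, with 25 (58.1%) above 0. Over all genes tested it was 0.02, with 53.4% above 0. With RLE factors in place of TMM factors the split at 0.05 became 1 higher and 3 lower, *Psma3* no longer passing and *Psmd4* passing.

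In dKO against ctrl, 5 genes were higher and 2 were lower at 0.05, where 5.45% of all 11381 genes tested were higher and 10% lower. At 0.001 *Psmd5* was lower and no proteasome gene was higher, beside 2.34% and 0.246% of all genes. The median log2 fold change was 0.08, with 31 of 43 (72.1%) above 0. Over all genes it was 0.01, with 51.4% above 0. With libraries scaled by total counts in place of TMM factors, which moved the median of all genes to 0.10, the split became 8 higher and 1 lower. In dKO against cKO, *Psmd5* was lower and no proteasome gene was higher at 0.05, where 9.42% of all 11746 genes tested were lower and 5.59% higher. Both comparisons against ctrl use the same 7 ctrl libraries.

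**Figure D2:**
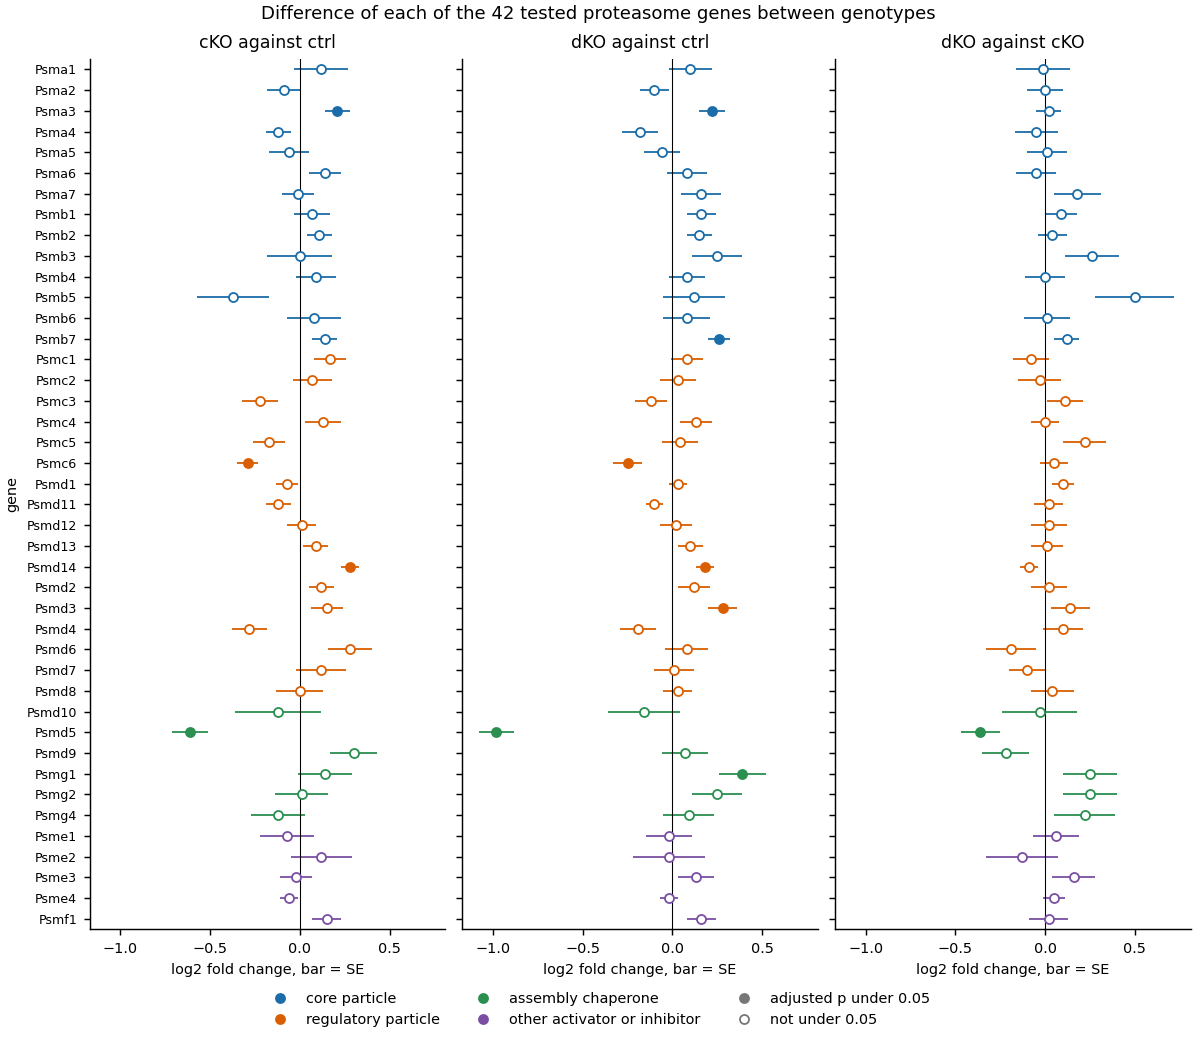
Log2 fold change (points) and its SE (bars) of the 42 tested proteasome genes in cKO against ctrl, dKO against ctrl and dKO against cKO, by complex; filled points have an adjusted p under 0.05. *Psmd5* lies at -0.61, -0.98 and -0.36, and the other filled points lie between -0.29 and 0.39.

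Promoters are shown for the 4 genes called in both comparisons against ctrl, *Psmd5*, *Psmd14*, *Psmc6* and *Psma3*, so that the letters in front of the genes that were higher can be read beside those in front of the genes that were lower. Each window runs from 250 bases before to 50 after the RefSeq start on GRCm38.p6. The windows are chr2:34870913-34871212 on the minus strand for *Psmd5*, chr2:61711444-61711743 on the plus strand for *Psmd14*, chr14:45329574-45329873 on the plus strand for *Psmc6* and chr12:70974373-70974672 on the plus strand for *Psma3*. The RefSeq start of *Psmd5* is 4006 bp downstream of the 5′ end of the gene in GENCODE M21. Capitals mark matches, on either strand, to TGACNNNGC or TGAGNNNGC, the element read by NFE2L1 and NFE2L2, to ATGGCGG, a YY1 motif, or to CCAAT, the NF-Y box.
Psmd5: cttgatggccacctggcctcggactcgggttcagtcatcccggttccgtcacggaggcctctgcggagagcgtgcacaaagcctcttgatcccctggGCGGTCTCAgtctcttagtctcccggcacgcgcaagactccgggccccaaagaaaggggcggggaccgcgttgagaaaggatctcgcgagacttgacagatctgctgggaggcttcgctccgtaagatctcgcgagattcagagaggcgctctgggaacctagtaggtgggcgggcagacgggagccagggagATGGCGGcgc
Psmc6: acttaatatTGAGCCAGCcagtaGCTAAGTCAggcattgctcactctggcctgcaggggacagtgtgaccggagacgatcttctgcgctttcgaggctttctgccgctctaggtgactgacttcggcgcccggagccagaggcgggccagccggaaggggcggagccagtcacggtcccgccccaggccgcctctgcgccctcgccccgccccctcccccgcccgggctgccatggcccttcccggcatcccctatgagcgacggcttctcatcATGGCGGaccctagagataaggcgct
Psmd14: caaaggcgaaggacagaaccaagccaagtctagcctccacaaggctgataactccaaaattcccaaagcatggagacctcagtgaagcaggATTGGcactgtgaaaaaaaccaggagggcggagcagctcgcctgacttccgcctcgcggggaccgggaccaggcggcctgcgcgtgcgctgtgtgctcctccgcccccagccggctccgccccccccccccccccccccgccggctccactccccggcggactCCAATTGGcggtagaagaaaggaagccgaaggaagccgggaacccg
Psma3: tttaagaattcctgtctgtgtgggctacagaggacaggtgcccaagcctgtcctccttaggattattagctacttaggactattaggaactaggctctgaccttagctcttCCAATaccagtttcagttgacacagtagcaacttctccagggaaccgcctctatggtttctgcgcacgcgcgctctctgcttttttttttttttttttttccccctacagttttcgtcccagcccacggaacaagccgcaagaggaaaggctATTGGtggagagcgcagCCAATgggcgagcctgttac

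The windows of *Psmd5* and *Psmc6*, which were lower in both mutants, each held TGAGNNNGC and ATGGCGG, and that of *Psmc6* also TGACNNNGC. In *Psmd5* the ATGGCGG match began 41 bases after the start and in *Psmc6* 25 bases after it. The windows of *Psmd14* and *Psma3*, which were higher, each held 3 matches to CCAAT and none to the other letters searched, and the last 2 matches in *Psmd14* overlapped each other. These matches describe letters in a window and were not linked to the differences by any test.

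RefSeq windows were used for 42 of the 50 genes, 45 windows in all. Windows on chromosome 18, where *Psma8* and *Psmg2* lie, were left out for these genes and for all genes. *Psma8*, *Psmb1*, *Psmb2*, *Psmb7*, *Psmc3*, *Psmd3*, *Psmd7* and *Psmg2* were not used. TGACNNNGC was in 13.3% of these windows and in 12.4% of all 32851 windows of the same length, and TGAGNNNGC in 31.1% and 17.6%. ATGGCGG was in 8.89% of the proteasome windows, those of *Psmb6*, *Psmc6*, *Psmd1* and *Psmd5*, and in 4.05% of all windows. Of these, *Psmb6* had log2 fold changes of 0.08 in both mutants against ctrl, and *Psmd1* of -0.07 in cKO and 0.03 in dKO. Neither gene passed. CCAAT was in 33.3% and 37.4%. The windows with CCAAT included those of *Psma2*, *Psmd4* and *Psmd10*, which had log2 fold changes below 0 in both mutants. They also included those of *Psma1*, *Psma6*, *Psmc1*, *Psmc2* and *Psmc3ip*, which were above 0 in both mutants.

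*Psmd5* had the lowest log2 fold change of the 43 genes in all 3 comparisons. It encodes a chaperone that holds ATPase subunits while the base is assembled. The gene lies on chromosome 2 of GRCm38 from 34849734 to 34874968 on the minus strand (ENSMUSG00000026869.12). Its level in the 7 ctrl embryos had a lowest value of 35.9, a median of 45.7 and a highest of 51.4 CPM. The 5 cKO embryos were at 27.0, 29.0, 27.3, 28.4 and 32.1 CPM. The 7 dKO embryos had a lowest value of 20.2, a median of 20.5 and a highest of 27.8 CPM. Every mutant embryo of either genotype was below every ctrl embryo, and 6 of 7 dKO embryos were below all cKO embryos.

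The log2 fold change of *Psmd5* was -0.61 in cKO against ctrl (SE 0.10, edgeR adjusted p = 0.000577), which is 0.654 times the ctrl level. In dKO against ctrl it was -0.98 (SE 0.10, edgeR adjusted p = 3.22e-06), 0.506 times the ctrl level. The direct comparison of dKO with cKO gave -0.36 (SE 0.11, edgeR adjusted p = 0.0356). Within batch 1 the differences from ctrl were -0.71 in cKO and -1.09 in dKO, and within batch 2 they were -0.45 and -0.73, the first of which did not pass (adjusted p = 0.171). The difference between dKO and cKO was -0.38 in batch 1 and -0.29 in batch 2 and passed in neither. It also missed 0.05 with DESeq2, with total counts and with no filter beyond 1 count, and without any of cKO B, C, D or E or dKO A, B, C or G, with adjusted p between 0.0501 and 0.0978, and no litter held both genotypes, so litter and genotype cannot be told apart there. In RNA of whole tissue, fewer cells of a type and less RNA per cell cannot be told apart.

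The other chaperones of the base passed no test. *Psmd9* differed from ctrl by 0.30 in cKO (SE 0.13, edgeR adjusted p = 0.123) and by 0.07 in dKO (SE 0.13), and 25.5% of its exon length is shared with a noncoding gene on the opposite strand. *Psmd10* differed by -0.12 (SE 0.24) and -0.16 (SE 0.20). The sum over the 3 base chaperones was 67.1 ± 7.79 CPM in ctrl (SD, n = 7), 56.0 ± 3.23 in cKO (SD, n = 5) and 46.4 ± 5.27 in dKO (SD, n = 7), and *Psmd5* made up 44.1, 28.8 and 22.6 CPM of these means.

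Among the chaperones that help to build the core rings, *Psmg1* was higher in dKO. The gene lies on chromosome 16 from 95979933 to 95990960 on the minus strand, and its protein acts with that of *Psmg2* on the alpha ring. Ctrl embryos had a lowest value of 12.4, a median of 13.6 and a highest of 17.8 CPM, and dKO embryos 14.1, 20.1 and 23.8. The cKO embryos were at 19.8, 14.7, 17.9, 13.6 and 12.1 CPM. The ranges overlapped, with 4 of 7 dKO embryos above every ctrl embryo.

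*Psmg1* differed by 0.39 in dKO against ctrl (SE 0.13, edgeR adjusted p = 0.0437). Within batch 1 it differed by 0.42 and within batch 2 by 0.35, and neither passed (edgeR adjusted p = 0.0734 and 0.548). The call in dKO was lost without any of ctrl A, B, C, D or F or dKO A, D, E or F (adjusted p from 0.0566 to 0.1). It was also lost with DESeq2, no filter beyond 1 count, the replicate block and the litter block. The replicate block groups embryos by the letter in their label, which does not mark litters. In cKO against ctrl *Psmg1* differed by 0.14 (edgeR adjusted p = 0.589). *Psmg2* and *Psmg4* had log2 fold changes of 0.25 and 0.09 in dKO and of 0.01 and -0.12 in cKO, and none of these passed.

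*Psmd14* was higher in both mutants. It lies on chromosome 2 from 61711694 to 61800376 on the plus strand (ENSMUSG00000026914.15). Ctrl embryos had a lowest value of 200, a median of 215 and a highest of 224 CPM. In cKO the embryos were at 248, 265, 261, 250 and 253 CPM. The dKO embryos had a lowest value of 231, a median of 239 and a highest of 254 CPM. All mutant embryos were above all ctrl embryos, and the cKO and dKO ranges overlapped.

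The log2 fold change of *Psmd14* was 0.28 in cKO against ctrl (SE 0.05, edgeR adjusted p = 0.000945), or 1.22 times the ctrl level. It was 0.18 in dKO against ctrl (SE 0.05, edgeR adjusted p = 0.014). Between dKO and cKO it was -0.09 (SE 0.05, edgeR adjusted p = 0.257). Within batches it was 0.29 and 0.26 in cKO and 0.16 and 0.23 in dKO, of which the value in batch 1 passed for cKO (adjusted p = 0.00867). The call in dKO was lost with no filter beyond 1 count, the replicate block, the litter block and in each of batches 1 and 2 alone. The end of *Psmd14* is 2554 bp from the start of *Tbr1*, a transcription factor gene of cortical neurons on the same strand. *Tbr1* had log2 fold changes of 0.20 in cKO (edgeR adjusted p = 0.346), -0.29 in dKO (0.123) and -0.48 between dKO and cKO (0.00131).

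**Figure D3:**
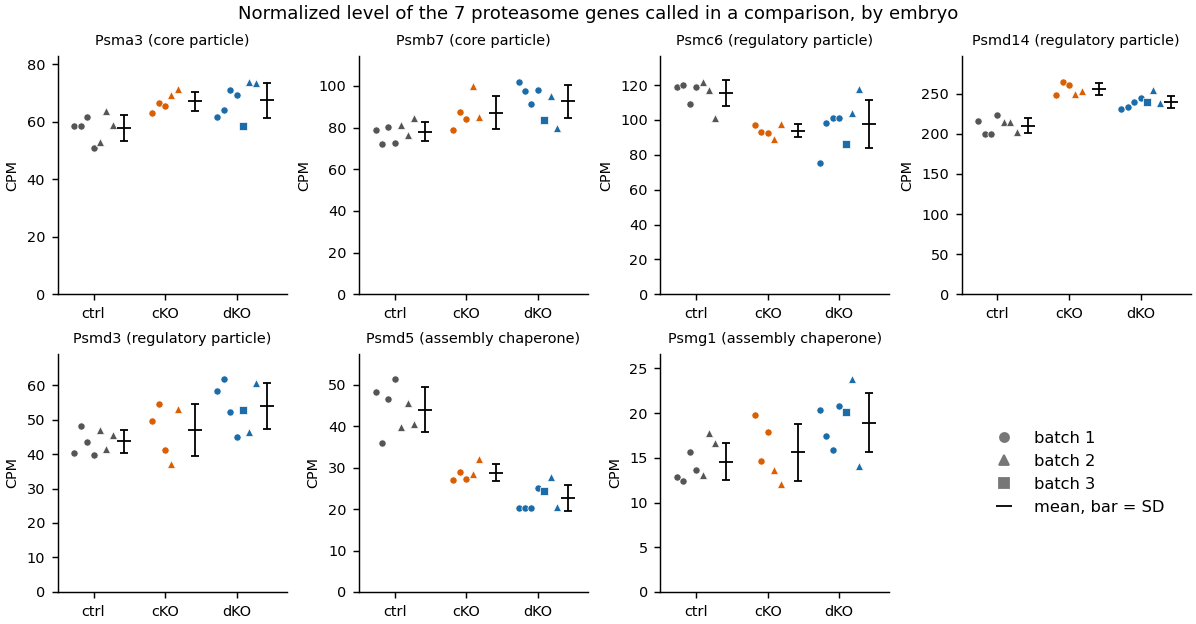
Normalized level in CPM of the 7 proteasome genes called in at least 1 comparison, for each of the 19 embryos, with marker shape for batch and the mean and SD beside each group; every axis starts at 0. *Psmd5* and *Psmd14* separate all mutant embryos from all ctrl embryos, while *Psmb7*, *Psmd3* and *Psmg1* overlap.

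The ATPase subunit *Psmc6* was lower in both mutants. It lies on chromosome 14 from 45329788 to 45349705 on the plus strand (ENSMUSG00000021832.7). Ctrl embryos had a lowest value of 101, a median of 119 and a highest of 122 CPM. The cKO embryos were at 96.9, 93.3, 92.3, 88.9 and 97.8 CPM, and the dKO embryos had a lowest value of 75.4, a median of 101 and a highest of 118 CPM. All cKO embryos were below all ctrl embryos, whereas 3 of 7 dKO embryos were.

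*Psmc6* differed by -0.29 in cKO against ctrl (SE 0.06, edgeR adjusted p = 0.00309) and by -0.25 in dKO against ctrl (SE 0.08, edgeR adjusted p = 0.0305). Within batch 1 these values were -0.32 and -0.31, and within batch 2 they were -0.25 and -0.05. The call in dKO was lost without any of ctrl A, B or D or dKO A, B or E, with adjusted p from 0.0506 to 0.0683. It was also lost with total counts in place of TMM factors, with no filter beyond 1 count and with batch as a covariate. The replicate block, the litter block and batch 2 alone lost it too. The other 5 ATPases had log2 fold changes from -0.22 for *Psmc3* to 0.17 for *Psmc1* in cKO and from -0.12 to 0.13 in dKO, and none passed.

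Among the other lid subunits, *Psmd3* was higher in dKO. It lies on chromosome 11 from 98682554 to 98695979 on the plus strand and encodes a scaffold subunit of the lid. Ctrl embryos had a lowest value of 39.8, a median of 43.4 and a highest of 48.0 CPM, and dKO embryos 44.8, 52.7 and 61.7. The cKO embryos were at 49.5, 54.4, 41.2, 37.1 and 53.0 CPM. Of the dKO embryos 5 of 7 were above every ctrl embryo, and the cKO embryos spanned both ranges.

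The log2 fold change of *Psmd3* was 0.28 in dKO against ctrl (SE 0.08, edgeR adjusted p = 0.0298). It was 0.31 in batch 1 and 0.20 in batch 2, and neither passed (edgeR adjusted p = 0.0839 and 0.586). The call in dKO was lost without any of ctrl A, C or D or dKO B (adjusted p from 0.0541 to 0.0676). No filter beyond 1 count, the replicate block and the litter block lost it too. In cKO against ctrl the log2 fold change of *Psmd3* was 0.15 (edgeR adjusted p = 0.309). Over the 8 lid subunits, 7 had a log2 fold change above 0 in each mutant. The medians were 0.11 in cKO and 0.06 in dKO beside 0.02 and 0.01 over all genes. Of all genes tested, 53.4% were above 0 in cKO and 51.4% in dKO. With RLE factors 6 of the 8 were above 0 in cKO, and in dKO 7 were above 0 under both other scalings. The lid sum lay between 562 and 597 CPM in ctrl, 610 and 648 in cKO and 597 and 653 in dKO, and *Psmd14* made up 210, 255 and 240 CPM of the group means.

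No base subunit outside the ATPase ring passed. *Psmd4* came nearest, with 102 ± 12.6 CPM in ctrl (SD, n = 7) and 83.8 ± 10.4 in cKO (SD, n = 5), which differ by -0.28 on the log2 scale (SE 0.10, edgeR adjusted p = 0.0515). *Psmd1* and *Psmd2*, the large scaffold subunits of the base, differed from ctrl by -0.07 and 0.12 in cKO and by 0.03 and 0.12 in dKO.

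In the alpha ring, *Psma3* was higher in both mutants. It lies on chromosome 12 from 70974621 to 70996347 on the plus strand (ENSMUSG00000060073.9). Ctrl embryos had a lowest value of 50.8, a median of 58.4 and a highest of 63.6 CPM, and dKO embryos 58.6, 69.4 and 73.9. In cKO they were at 63.0, 66.5, 65.3, 69.2 and 71.2 CPM. Of the cKO embryos 4 of 5, and of the dKO embryos 5 of 7, were above every ctrl embryo.

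*Psma3* differed by 0.21 in cKO against ctrl (SE 0.07, edgeR adjusted p = 0.0498) and by 0.22 in dKO against ctrl (SE 0.07, edgeR adjusted p = 0.0415). Within batches the values were 0.17 and 0.26 in cKO and 0.21 and 0.32 in dKO, and none of these passed. The call in cKO was lost without any embryo other than ctrl C or H (adjusted p from 0.0628 to 0.121), and the call in dKO without any of ctrl A, B, D, F or I or dKO C, D, F or G (0.054 to 0.0905). Both calls were also lost with no filter beyond 1 count, sex as a covariate, the replicate block and the litter block. The call in cKO was lost with DESeq2 and RLE factors as well. The other 6 alpha subunits tested had log2 fold changes from -0.12 to 0.14 in cKO and from -0.18 to 0.16 in dKO.

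In the beta ring, *Psmb7* was higher in dKO. It encodes the subunit with trypsin-like activity and lies on chromosome 2 from 38588036 to 38644087 on the minus strand, with 11.8% of its exon length shared with *Nek6* on the opposite strand. Ctrl embryos had a lowest value of 72.1, a median of 78.8 and a highest of 84.5 CPM, and dKO embryos 80.0, 95.1 and 102. In cKO they were at 78.8, 87.4, 83.9, 100 and 85.0 CPM. Of the dKO embryos 5 of 7 were above every ctrl embryo.

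*Psmb7* differed by 0.26 in dKO against ctrl (SE 0.06, edgeR adjusted p = 0.00712), 0.34 in batch 1 and 0.15 in batch 2. The call in dKO was lost with litter as a block and within batch 2. In cKO against ctrl it was 0.14 (SE 0.07, edgeR adjusted p = 0.149). The log2 fold change was above 0 in dKO for all 7 beta subunits, between 0.08 and 0.26, and 1 of them passed. Their median was 0.15 beside 0.01 over all genes, of which 51.4% were above 0. All 7 beta subunits were above 0 with RLE factors as well, between 0.09 and 0.26. They were also above 0 with total counts. That scaling moved the median of all genes up to 0.10, so it could not have put them below 0. *Psmb5*, the subunit with chymotrypsin-like activity, had the widest spread, with log2 fold changes of -0.37 in cKO (SE 0.20, edgeR adjusted p = 0.273), 0.12 in dKO (SE 0.17) and 0.50 between dKO and cKO (SE 0.22, edgeR adjusted p = 0.143).

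Summed over its 15 genes, the core particle had 584 ± 25.3 CPM in ctrl (SD, n = 7), 609 ± 21.6 in cKO (SD, n = 5) and 627 ± 34.8 in dKO (SD, n = 7). The regulatory particle had 1244 ± 23.6, 1258 ± 28.7 and 1275 ± 34.5 CPM in the same groups. The ranges of the 3 groups overlapped for both particles. The 7 assembly chaperones summed to 113 ± 8.17, 101 ± 4.31 and 101 ± 8.26 CPM.

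**Figure D4:**
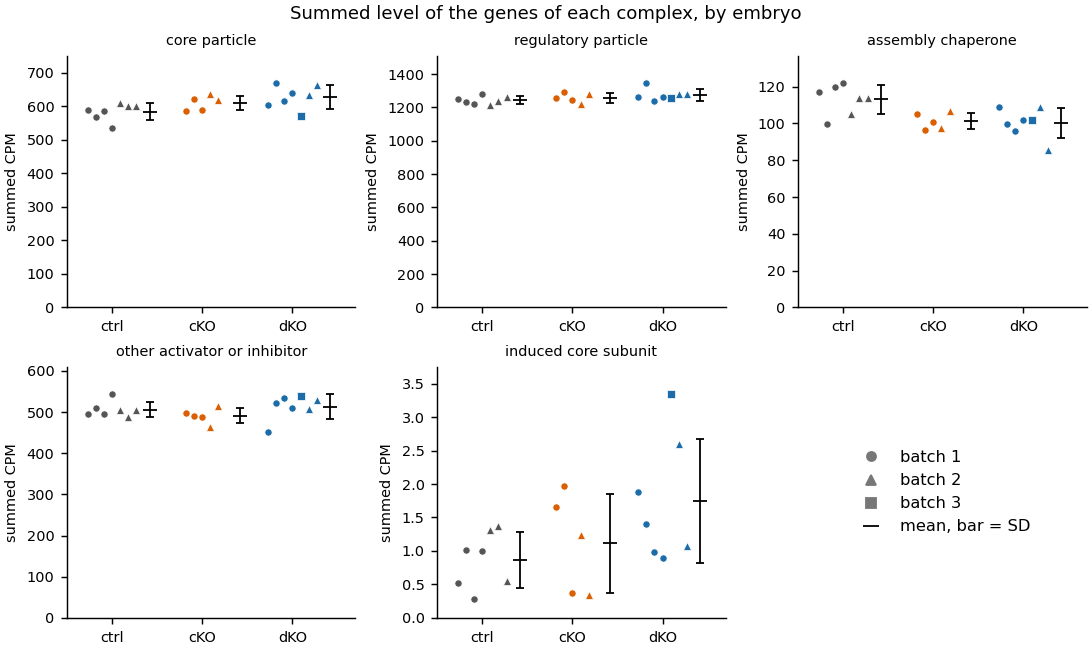
Summed CPM of the genes of each complex for every embryo, with marker shape for batch and the mean and SD beside each group; axes start at 0. The core and regulatory particles overlap between genotypes, with ctrl means of 584 and 1244 CPM, and the induced core subunits stay at or below 3.35 CPM.

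None of the other activators and inhibitors passed in any comparison. *Psme1* and *Psme2*, whose proteins form the activator induced by interferon, differed from ctrl by -0.07 and 0.12 in cKO and by -0.02 and -0.02 in dKO. *Psme3*, its nuclear relative, differed by -0.02 and 0.13, *Psme4* by -0.06 and -0.02, and *Psmf1* by 0.15 and 0.16. The smallest adjusted p of these was 0.265, for *Psmf1* in dKO.

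The 7 genes not tested had few counts. *Psmb8*, *Psmb9* and *Psmb10*, the catalytic subunits of the immunoproteasome, had 3, 6 and 58 counts over all 19 libraries, and *Psmb11*, the subunit of the thymus, had 0. *Psmb10* was at 0.827 ± 0.462 CPM in ctrl (SD, n = 7), 0.82 ± 0.464 in cKO (SD, n = 5) and 1.54 ± 0.655 in dKO (SD, n = 7), and the ranges overlapped. *Psmg3* had 45 counts, *Psma8* 17 and *Psme2b* 0. A count of 0 in a library allows up to 3 counts, which is between 0.371 and 3.65 CPM depending on its depth, for counting error only. These values do not show that the genes are silent in the tissue.

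Other genes of the pathway were taken from lists of general knowledge. Among 5 subunits and chaperones without a Psm name that had counts, *Ecpas*, which ties the regulatory particle to the core, was lower in both mutants. It fell from 207 ± 7.87 CPM in ctrl (SD, n = 7) to 171 ± 8.43 in cKO (SD, n = 5) and 164 ± 15.7 in dKO (SD, n = 7), with log2 fold changes of -0.27 (SE 0.05, edgeR adjusted p = 0.0018) and -0.34 (SE 0.06, edgeR adjusted p = 0.000664). Every mutant embryo was below every ctrl embryo. *Paaf1* was not matched.

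Of 11 enzymes and shuttle factors that bind the proteasome, none was called in cKO, 1 was higher in dKO and 1 was lower. *Uchl5*, a deubiquitinase, was higher in dKO by 0.32 (SE 0.10, edgeR adjusted p = 0.0452), which was lost in 10 of the 14 fits that left out 1 embryo. That call was also lost with no filter beyond 1 count, batch as a covariate, the replicate block, the litter block and in batches 1 and 2 alone. *Ubqln2*, a carrier of tagged proteins, had -0.32 (SE 0.08, edgeR adjusted p = 0.0111), with -0.44 in batch 1 and -0.16 in batch 2 (adjusted p = 0.657), and the call was lost with total counts. Of 10 subunits of the COP9 signalosome, a complex built like the lid, *Cops6* was lower in dKO by -0.50 (SE 0.10, edgeR adjusted p = 0.00198) and *Gps1* higher by 0.35 (SE 0.10, edgeR adjusted p = 0.021, and 0.0506 without dKO B). Both calls were lost with litter as a block and in batch 2 alone, and that of *Gps1* also with the replicate block and in batch 1 alone.

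*Uba1*, the enzyme that activates ubiquitin, was higher in cKO than in ctrl by 0.25 (SE 0.05, edgeR adjusted p = 0.00332) and lower in dKO than in cKO by -0.22 (SE 0.07, edgeR adjusted p = 0.029). It was the gene called among 5 tested for ubiquitin and its activation, and the second of these calls was lost without any of cKO A, C or D or dKO D or E (adjusted p up to 0.0781). That second call was also lost with total counts, no filter beyond 1 count and batch or sex as a covariate. The replicate block and batches 1 and 2 alone lost it too. Among 9 genes around NFE2L1, the factor that induces proteasome genes when the proteasome is inhibited, none was called against ctrl. *Nfe2l1* itself differed by 0.06 in cKO and -0.06 in dKO, and *Nfe2l2* was lower in dKO than in cKO by -0.67 (SE 0.18, edgeR adjusted p = 0.0154, and 0.0691 without cKO E). No gene of a list for antigen presentation passed, of which 2 of 9 were tested.

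Markers of cell types moved beside these differences. The summed level of 12 microglial markers was between 5.69 and 14.2 CPM in ctrl, 32.1 and 42.7 in cKO and 6.69 and 11.7 in dKO, all 3 markers tested were higher in cKO, and *Trem2* was at 0 in every ctrl library. The sum over 5 interneuron markers was between 5.49 and 64.6 CPM in ctrl, 53.3 and 96.3 in cKO and 23.6 and 61.2 in dKO, with 1 of 3 tested higher in cKO and 3 of 3 lower in dKO than in cKO. Of 4 markers of cortical identity 3 were lower in cKO, where their sum was between 438 and 579 CPM beside 627 and 761 in ctrl and 535 and 795 in dKO. Of 3 markers of intermediate progenitors 2 were lower in cKO, and of 4 tested for neurons 1 was lower in dKO than in ctrl and 2 lower than in cKO. Of 4 tested for apical progenitors 1 was lower in each mutant than in ctrl, a different gene in each. In cKO it was *Nes*, with a log2 fold change of -0.34 (edgeR adjusted p = 0.00943), and in dKO *Vim*. *Nes* was higher in dKO than in cKO by 0.29 (edgeR adjusted p = 0.0336), as were 2 of the 4 markers of cortical identity. None of the markers of endothelium or red blood cells passed in any comparison (edgeR). *Sox2* and *Tubb3*, defining genes of progenitors and neurons, were listed at 0 in every library. In dKO the microglial sum lay within the ctrl range. The markers called there against ctrl were *Bcl11b* of neurons and *Vim* of apical progenitors. Their log2 fold changes were -0.42 (edgeR adjusted p = 0.037) and -0.23 (edgeR adjusted p = 0.0376). The part of the other cell types in these results was not tested.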

How the data were processed

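RNA libraries were made by a Click-seq protocol from the E13.5 cortex of single embryos. Per the labels and the study's methods, the authors used UMI-tools 0.5.3 for the molecular identifiers, cutadapt 1.13 for trimming, STAR 2.5.2a for alignment and HTSeq 0.6.1p1 for counting reads per gene. The deposited values are raw counts per gene, and 23.3 to 31.8% of the counts of a library were on rows that name no gene, which were left out. Whether the counting used strand is not given in the sources used here.

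Groups came from the sample labels. Each comparison was fitted on its own groups with edgeR 4.0.16 (R 4.3.3): TMM factors, a minimum count of 10 in the expression filter, the quasi-likelihood test and Benjamini-Hochberg adjustment over all genes tested, at 0.05 and at the study's 0.001. SEs were derived from the F statistic. Levels are CPM, also per kb of exon, with all annotated exons of a gene merged. Gene identifiers were matched to GENCODE M21 (GRCm38) without their version, 51633 of 51912. Promoters came from RefSeq.

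The members and lists were chosen with earlier results of these data known. Members past 0.05 in any comparison, *Psmd5* and *Psmd14* are given by sample, the highest and lowest of each complex by level, and pathway genes by name where they passed. Alternatives were DESeq2 1.42.0, a likelihood-ratio test, other scalings and filters, 1 fit over all libraries, covariates and blocks, single batches and each embryo left out. The test was also run on simulated data. Floors cover counting error only.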

Additional observations from a re-analysis of the deposited data

Results flagged for a closer look

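In 3 of 42 groups of values, 1 embryo stood apart from the others of its genotype by Dixon's criterion, which chance meets in about 1 in 20 groups. The regulatory particle sum of dKO B was 1347 CPM, and the next dKO embryo was at 1281. The sum of the other activators and inhibitors was 545 CPM in ctrl D, with the next ctrl embryo at 509, and 451 CPM in dKO A, with the next dKO embryo at 507.

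*Psmg1* differed from ctrl in opposite directions in the batches of cKO embryos. The log2 fold change was 0.34 in batch 1 (edgeR adjusted p = 0.192), where each of 3 cKO embryos lay above the ctrl mean. It was -0.35 in batch 2 (edgeR adjusted p = 0.56), where each of 2 cKO embryos lay below the ctrl mean. Neither value passed, and 14 pairs of a gene and a mutant genotype were screened for such a reversal. The difference between the batches was not tested.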

How the results depend on the processing

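In cKO against ctrl, the 2 calls at 0.001 became 3 with the likelihood-ratio test, 1 with RLE factors, total counts, no filter beyond 1 count or sex as a covariate, 0 with the replicate block, the litter block, batch 1 alone or batch 2 alone (edgeR), and 0 to 1 without 1 embryo. The 4 calls at 0.05 became 0 in batch 2 alone and 3 to 5 without 1 embryo. In dKO against ctrl, the 7 calls at 0.05 became 2 with no filter beyond 1 count or the replicate block, 1 with the litter block or batch 2 alone, 3 in batch 1 alone and 3 to 7 without 1 embryo (3 without ctrl A or ctrl D, 4 without ctrl B). The 1 call at 0.001 became 2 with the likelihood-ratio test and 0 with the replicate block or batch 2 alone. In dKO against cKO, the 1 call became 0 with DESeq2, total counts, no filter beyond 1 count, batch 1 alone or batch 2 alone, 2 with sex as a covariate and 0 to 1 without 1 embryo. The cause of these changes was not tested, except that single batches hold fewer embryos. In batch 2 alone, calls over all genes fell from 2004 to 606 in cKO and from 1759 to 356 in dKO against ctrl.

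The median log2 fold change of the proteasome genes in cKO moved from 0.07 to 0.10 with total counts, 0.01 with sex or the litter block and 0.00 in batch 2 alone, with 0.02 to 0.08 without 1 embryo. In dKO it moved from 0.08 to 0.18 with total counts, and in dKO against cKO from 0.02 to 0.07, with 0.06 to 0.10 and 0.01 to 0.05 without 1 embryo. No log2 fold change of a named gene that passed 0.05 changed sign under any alternative. Among those that did not pass, *Psmg1* in cKO went from 0.14 to -0.35 in batch 2 alone, and *Uba1* in dKO and *Psma3*, *Psmb7* and *Psmc6* in dKO against cKO changed sign near 0. The letters did not mark litters, though ctrl and dKO embryos A and B came from 1 litter and most embryos with the same letter shared a batch. With the replicate block, calls over all genes fell from 2004 to 1792 in cKO and from 1759 to 1018 in dKO against ctrl. The deviations of embryos with the same letter correlated between -0.36 and 0.14, and not every embryo matched best with its own letter. The litter block could not be fitted for dKO against cKO, which share no litter.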
